A study of Mus musculus with 4 samples.

Results

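MiR-208a, miR-208b and miR-499 are microRNAs (miRNAs) cut from the introns of myosin heavy chain genes, and their mature arms were followed here in C2C12 myotubes grown with or without guanidinoacetic acid (GAA), the precursor of creatine. The 5 mature arms named miR-208a-3p, miR-208b-3p, miR-208b-5p, miR-499-5p and miR-499-3p were looked up by exact name among the 869 miRNAs that had a value in any sample. Of the 5 arms, 3 had a value in at least 1 sample, and miR-208a-3p and miR-208b-5p had none. C2C12 is a mouse skeletal muscle cell line, labelled as a myoblast source with the strain background 129/Rej, whose cells fuse into myotubes when serum is lowered. All 4 samples were taken on day 6 of differentiation in medium with 2% horse serum, with 0 mM GAA in the 2 NC samples and 20 mM GAA in the 2 GAA samples. Small RNA was sequenced on an Illumina HiSeq instrument. The labels do not say whether the 2 samples of a group came from separate cultures, so p-values measure only the spread between these samples, which may be technical.

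A miRNA is cut from a hairpin precursor, and 1 of the 2 arms, the guide, is kept more often than the other. The guide pairs with messenger RNAs mainly through its seed, bases 2 to 8 from the 5′ end. Myh6 and Myh7 encode the alpha and beta (slow) myosin heavy chains of heart and slow muscle, and Myh7b encodes a related myosin. MiR-208b and miR-499 are known as miRNAs of the slow muscle fibre programme, while miR-208a is known from the heart.

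The sequences below show what the 5 arms share, taken from RefSeq for GRCm38.p6, with the seed in capitals. All 5 arms had an entry there.

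miR-208a-3p: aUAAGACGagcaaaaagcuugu
miR-208b-3p: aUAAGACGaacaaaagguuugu
miR-499-5p: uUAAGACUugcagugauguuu
miR-208b-5p: aAGCUUUUugcucgcguuaugu
miR-499-3p: gAACAUCAcagcaagucugugcu

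MiR-208a-3p and miR-208b-3p had the same seed and differed at 3 of 22 bases, as G10A, A16G and C18U from the first to the second, counted from the 5′ end. MiR-499-5p shared bases 2 to 7 with both, and its seed differed from that of miR-208b-3p by G8U. Over the whole arm 10 of the 21 bases compared were the same in miR-208b-3p and miR-499-5p, and outside the seed 4 of 14 were. Among 1679 mature miRNAs in the table, 3 (0.179%) had UAAGAC at bases 2 to 7, and these were miR-208a-3p, miR-208b-3p and miR-499-5p. The opposite arms miR-208b-5p and miR-499-3p had other seeds. AACAUC, bases 2 to 7 of miR-499-3p, was also found in miR-448-5p, which had 0 reads in every sample.

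The precursors show how the 2 arms lie in each hairpin, with the 5p and 3p arms in capitals. Mir208b is at chr14:54975700-54975776 on the minus strand, and Mir499 is at chr2:155622880-155622958 on the plus strand.

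Mir208b: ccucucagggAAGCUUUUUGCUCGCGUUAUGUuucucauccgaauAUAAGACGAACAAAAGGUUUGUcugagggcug
Mir499: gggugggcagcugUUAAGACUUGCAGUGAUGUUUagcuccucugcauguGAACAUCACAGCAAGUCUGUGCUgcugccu

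The 3p arm of Mir208b and the 5p arm of Mir499 thus carry UAAGAC, on opposite sides of their hairpins. In the GENCODE M21 annotation of GRCm38, each precursor lay on the strand of its host and within 1 intron. Mir208b was in intron 31 of the 41-exon Myh7 transcripts, an intron of 461 bases. Mir499 was in intron 19 of the 42-exon Myh7b transcript, an intron of 481 bases. Mir208a was in intron 29 of the 39-exon Myh6 transcripts, an intron of 542 bases. Myh6 and Myh7 are neighbours on chromosome 14, with 3756 bases between them and 26557 bases between the precursors Mir208a and Mir208b. No other annotated gene overlapped the 3 precursors.

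**Figure D1:**
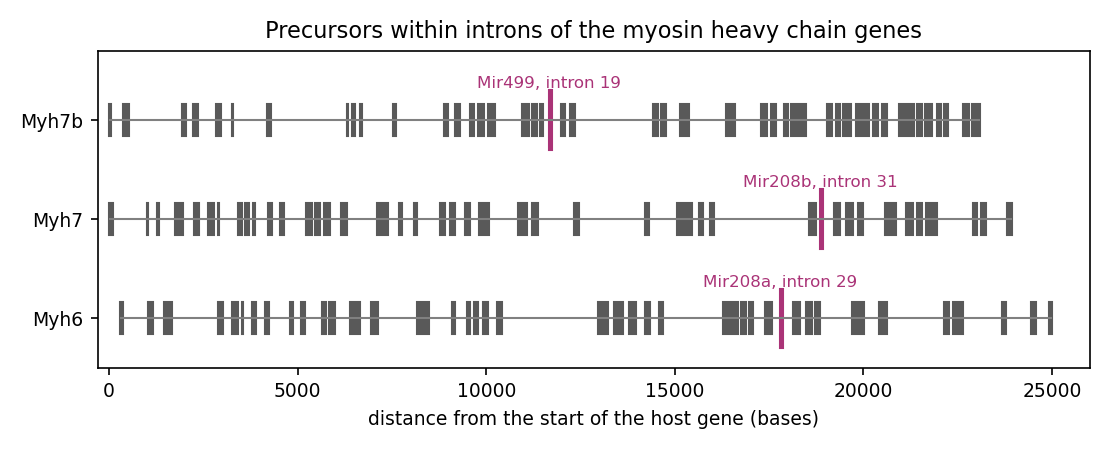
Exons (grey boxes) of the first listed transcript of Myh6, Myh7 and Myh7b by distance from the start of the gene in bases, with the precursor marked in purple (Mir208a, Mir208b, Mir499). Each precursor lies inside 1 intron, number 29 in Myh6, 31 in Myh7 and 19 in Myh7b.

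The deposited values were log2(RPM + 1), where RPM is reads per 1000000 mappable reads, and they rose in steps of 1 read, which gave back whole reads. Mappable reads numbered 4732359 to 4924776 in NC and 5566502 to 5657704 in GAA. Reads of known miRNAs made up 33.6% and 43.6% of them in NC, and 56.3% and 50.4% in GAA. Because this share differed between the groups, each arm is also given in miRNA RPM, its reads per 1000000 miRNA reads. The median difference between GAA and NC over all 869 miRNAs was 0.22 on the log2(RPM + 1) scale and 0.08 on the log2(miRNA RPM + 1) scale. Over the 410 miRNAs with a mean of at least 1 RPM these medians were 0.49 and 0.05. Intervals on single samples are 95% exact Poisson or binomial intervals and cover counting error only, since reads amplified by PCR are not independent molecules.

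MiR-208b-3p was lower in GAA than in NC, by 8.15-fold in mean RPM and by 11.7-fold in mean miRNA RPM. NC-1 and NC-2 held 92 and 84 of its reads, and GAA-1 and GAA-2 held 17 and 8. In the same order this was 18.7 RPM (15.1 to 22.9) and 17.8 RPM (14.2 to 22.0) without GAA, and 3.05 RPM (1.78 to 4.89) and 1.41 RPM (0.610 to 2.79) with it. The 2 NC samples were close to each other, both GAA samples were below both, and no interval of a GAA sample reached that of an NC sample. In miRNA RPM the NC samples stood at 55.6 and 40.7 and the GAA samples at 5.42 and 2.81. Group means were 18.2 ± 0.658 RPM in NC and 2.23 ± 1.16 RPM in GAA (SD, n = 2), or 48.1 ± 10.6 and 4.12 ± 1.85 miRNA RPM (SD, n = 2). Ordered by RPM within each sample, miR-208b-3p was number 200 of 632 and 208 of 622 in the NC samples, and number 341 of 701 and 390 of 693 in the GAA samples.

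In the fit across all miRNAs (limma), a miRNA was called at a false discovery rate under 0.01 with an absolute log2 fold change above 1. On the log2(miRNA RPM + 1) scale miR-208b-3p changed by -3.30 (SE 0.37, 95% interval -4.13 to -2.46, limma adjusted p = 0.00639). It was the 1 miRNA called of 869 (0.115%) on this scale. On the log2(RPM + 1) scale the difference was -2.62 (SE 0.32, 95% interval -3.52 to -1.72), or -2.84 relative to the median of all miRNAs. There the limma p was 0.00122 before and 0.205 after adjustment, so it was not called, and 0 of 869 miRNAs (0%) were, while 152 had an unadjusted p under 0.05. On both scales miR-208b-3p had the lowest log2 fold change of the 869 miRNAs. MiR-144-3p was number 2 on both. Its mean was lower in GAA by 7.87-fold in RPM and 11.3-fold in miRNA RPM, on 34 reads in NC and 5 in GAA. The call in miRNA RPM was lost with a pseudocount of 0.1 (log2 fold change -3.57, limma adjusted p = 0.0695). It was also lost when NC-1 (-3.07, limma adjusted p = 0.328), NC-2 (-3.52, 0.334), GAA-1 (-3.67, 0.12) or GAA-2 (-2.92, 0.164) was left out, which leaves the lone sample of a group assumed to vary like the other group.

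MiR-499-5p, the guide arm of the Myh7b intron, was scarcer and differed less between the groups. NC-1 and NC-2 held 22 and 21 of its reads, and GAA-1 and GAA-2 held 11 and 23. This was 4.47 RPM (2.80 to 6.76) and 4.44 RPM (2.75 to 6.78) in NC, and 1.98 RPM (0.986 to 3.54) and 4.07 RPM (2.58 to 6.10) in GAA. Both GAA values were below both NC values, but GAA-2 was close to NC and the intervals of all 4 samples overlapped. In miRNA RPM the NC samples were at 13.3 (8.34 to 20.1) and 10.2 (6.29 to 15.5), and the GAA samples at 3.51 (1.75 to 6.28) and 8.07 (5.11 to 12.1). On this scale the interval of GAA-1 lay below those of both NC samples, while that of GAA-2 overlapped them. Group means were 4.45 ± 0.0210 RPM in NC and 3.02 ± 1.48 RPM in GAA (SD, n = 2), a ratio of 1.47. The log2 fold change of miR-499-5p was -0.49 in RPM (SE 0.34, 95% interval -1.43 to 0.45, limma adjusted p = 0.524). In miRNA RPM it was -0.98 (SE 0.44, 95% interval -1.98 to 0.01, limma adjusted p = 0.621). Neither value passed the test. Without GAA-1 the log2 fold changes were -0.11 in RPM and -0.48 in miRNA RPM, and without GAA-2 they were -0.87 and -1.49.

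**Figure D2:**
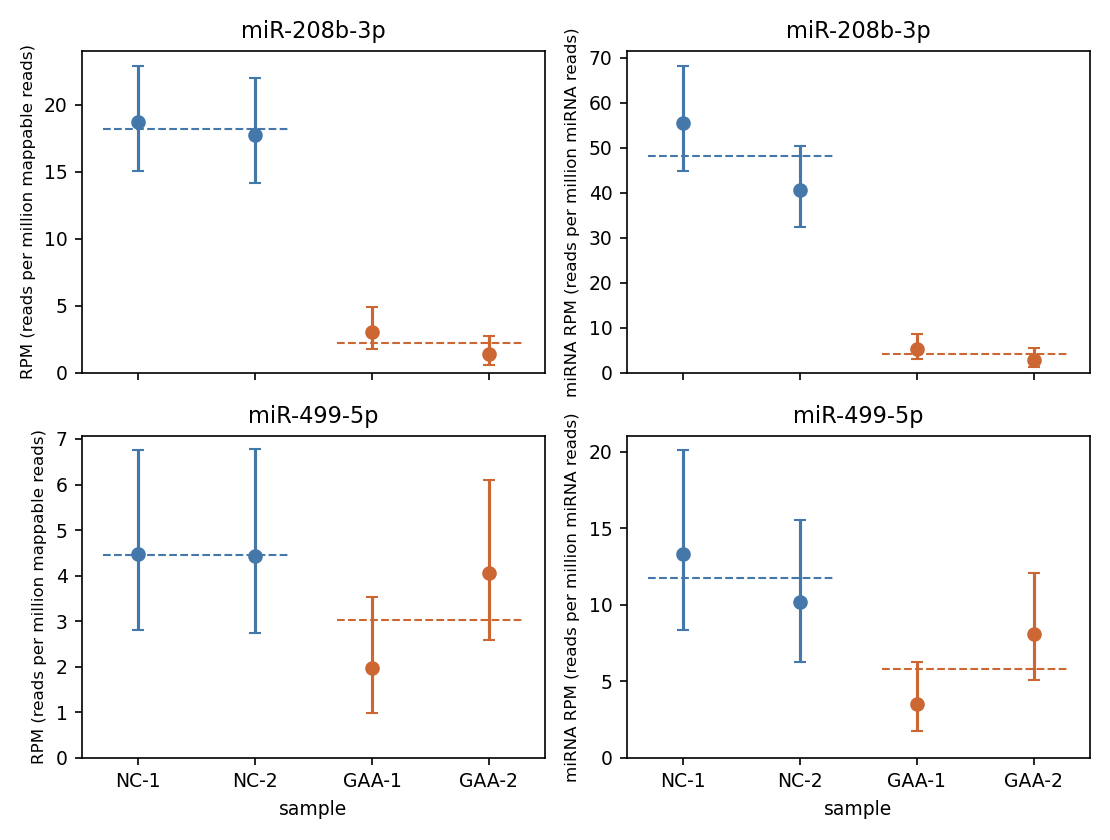
Levels of miR-208b-3p (top) and miR-499-5p (bottom) in each sample, in RPM (left) and in miRNA RPM (right), for NC (blue) and GAA (orange). Bars are 95% exact Poisson intervals and dashed lines are group means (n = 2). The GAA samples lie at 3.05 and 1.41 RPM of miR-208b-3p against 18.7 and 17.8 RPM in NC, while the RPM intervals of miR-499-5p overlap in all 4 samples.

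The remaining arms were at or near the detection limit. MiR-499-3p had 2 reads in NC-1, 1 in GAA-1 and 0 in the others, and no fold change is given for so few reads. MiR-208a-3p, miR-208b-5p and miR-208a-5p, the other arm of the Mir208a hairpin, had 0 reads in every sample. A count of 0 allows up to 3 reads, which was 0.530 RPM in the deepest sample, GAA-2, and 0.634 RPM in the shallowest, NC-2. These 3 arms were therefore not detectable at this depth. Of the 3 arms with reads, miR-208b-3p and miR-499-5p had both GAA samples below both NC samples. The same held for 48 of 869 miRNAs (5.52%) in RPM and for 117 (13.5%) in miRNA RPM.

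The arms of each hairpin were represented unequally, and in opposite orientation. All 201 miR-208b reads of the 4 samples were from the 3p arm. For the 5p arm, 0 of 201 allows a share of up to 1.49% by the limit of 3 reads, and up to 1.82% by the exact binomial interval. Of the 80 miR-499 reads, 3 were from the 3p arm (3.75%, exact binomial interval 0.780 to 10.6) and the rest from the 5p arm. In both hairpins the reads thus came from the arm with UAAGAC at bases 2 to 7. The arm shares could not be compared between groups, because GAA held 25 reads of miR-208b and the 3p arm of miR-499 had 0 to 2 reads in a sample.

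MiR-208b-3p and miR-499-5p were the arms with this seed start that had reads, and the balance between them differed between the samples. MiR-208b-3p made up 92 of their 114 reads in NC-1 (80.7%, exact binomial interval 72.3 to 87.5) and 84 of 105 in NC-2 (80.0%, 71.1 to 87.2). Of 28 reads in GAA-1 it made up 17 (60.7%, 40.6 to 78.5), and 8 of 31 in GAA-2 (25.8%, 11.9 to 44.6). MiR-208b-3p was thus the more abundant of the 2 in NC-1, NC-2 and GAA-1, and the less abundant in GAA-2. The log2 ratio of miR-208b-3p to miR-499-5p was 2.06 and 2.00 in the NC samples, 0.63 in GAA-1 and -1.52 in GAA-2. Its mean was 2.03 ± 0.05 in NC and -0.45 ± 1.52 in GAA (SD, n = 2), a difference of -2.48 (exact two-sided permutation test, p = 0.33). This p is the smallest that 2 samples against 2 can give. The difference was -1.40 without GAA-2 and -3.56 without GAA-1, and as a ratio within a sample it does not depend on the divisor.

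**Figure D3:**
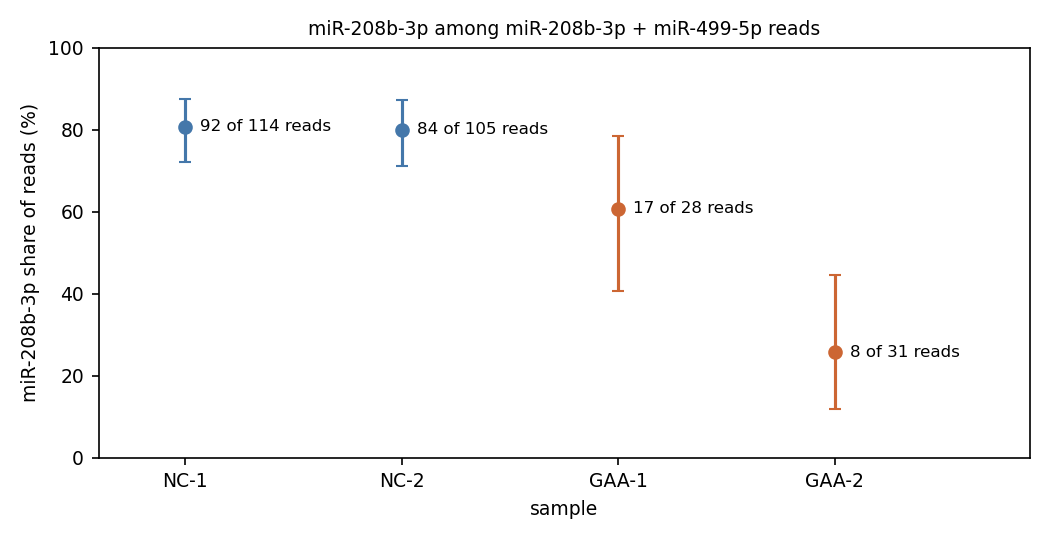
Share of miR-208b-3p, in percent, among the reads of miR-208b-3p and miR-499-5p in each sample, with 95% exact binomial intervals and the reads behind each point. The share is 80.7% and 80.0% in the NC samples, 60.7% in GAA-1 and 25.8% in GAA-2.

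Summed over the arms with UAAGAC, NC-1 and NC-2 held 114 and 105 reads, and GAA-1 and GAA-2 held 28 and 31. In miRNA RPM this was 68.9 and 50.8 against 8.93 and 10.9, with group means of 59.9 ± 12.8 in NC and 9.90 ± 1.37 in GAA (SD, n = 2). The 2 GAA samples were closer to each other in this sum than in either arm, and 88.1% of the difference between the group means came from miR-208b-3p. No test was made on the sum.

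The other muscle miRNAs were compared as a list of 6 guide arms and 7 opposite arms. MiR-1a-3p and miR-133a-3p are abundant in differentiated skeletal and heart muscle, miR-206-3p and miR-133b-3p are skeletal muscle miRNAs transcribed together, and miR-486 lies in an intron of an ankyrin gene. All 6 guide arms had reads in every sample, and 0 of 6 were called on either scale in the fit as reported. In miRNA RPM, miR-1a-3p and miR-133a-3p were called with the replicate number as a block and with limma-voom, alternatives described below. Both GAA samples were below both NC samples in miRNA RPM for 6 of 6 guide arms, against 13.5% of all 869 miRNAs. The median log2 fold change of the 6 was -0.83 against 0.08 over all 869 miRNAs. In RPM both GAA samples were below both NC samples for 3 of 6, against 5.52% of all miRNAs. There 4 of 6 had a log2 fold change below 0, against 24.7% of all miRNAs. The median was -0.35 over the 6 against 0.22. The log2 fold changes in miRNA RPM were -1.26 for miR-1a-3p, -1.02 for miR-133a-3p and -0.94 for miR-206-3p (limma adjusted p = 0.127 for each). They were -0.73 for miR-133b-3p (limma adjusted p = 0.327) and -0.36 for miR-486a-5p (limma adjusted p = 0.758). MiR-486b-5p had the same values as miR-486a-5p in every sample, and miR-133a-3p and miR-133b-3p are near-identical, so reads within each of these pairs may not be separable.

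MiR-1a-3p was the muscle guide arm closest in abundance to miR-208b-3p. The NC samples held 169 and 218 of its reads and the GAA samples 151 and 109, which was 102 and 106 miRNA RPM in NC and 48.2 and 38.2 in GAA. Both GAA samples were again below both NC samples, at a 2.40-fold lower mean, against 11.7-fold for miR-208b-3p. Among the 7 opposite arms, 6 had reads in any sample and 0 were called on either scale. On the scale of miRNA RPM, 4 of these 6 had a log2 fold change below 0, against 43.7% of all 869 miRNAs. Their median was -0.29, with a range from -1.43 for miR-1a-1-5p to 0.69 for miR-486a-3p. In RPM, 3 of the 6 were below 0 and 3 above, while 24.7% of all miRNAs were below 0. Their median there was 0.16 against 0.22 over all miRNAs, so the sign of the median turned with the scale. MiR-1a-2-5p had 0 reads in every sample.

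**Figure D4:**
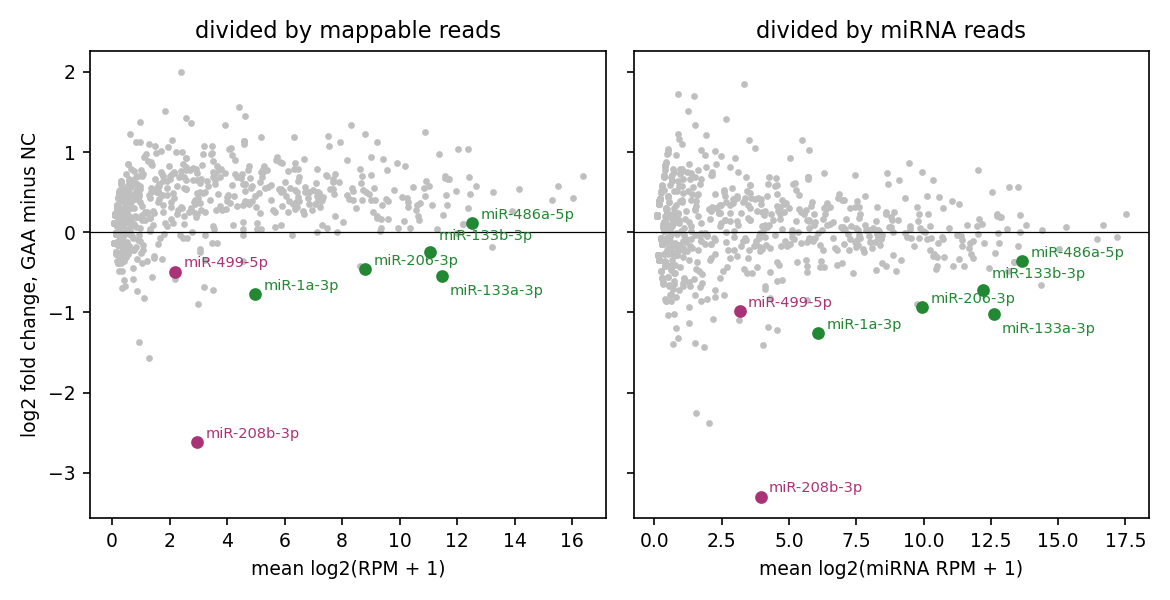
Log2 fold change (GAA minus NC) against the mean level of all 869 miRNAs, on the scale of log2(RPM + 1) (left) and of log2(miRNA RPM + 1) (right). MiR-208b-3p (-2.62 left, -3.30 right) and miR-499-5p (-0.49 left, -0.98 right) are in purple and the muscle guide arms are in green (miR-486b-5p, identical to miR-486a-5p, is not drawn).

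The difference in miR-208b-3p was also set against the summed guide arms miR-1a-3p, miR-133a-3p, miR-133b-3p and miR-206-3p of the same sample. For each read of miR-208b-3p, these 4 arms had 300.2 and 399 reads without GAA, and 1478 and 3457 with it. On the log2 scale the ratio of miR-208b-3p to this sum was -8.43 ± 0.29 in NC and -11.14 ± 0.87 in GAA (SD, n = 2), a difference of -2.71. The exact two-sided permutation test gave p = 0.33, again the smallest possible. Leaving out 1 sample at a time gave differences from -3.32 without GAA-1 to -2.09 without GAA-2. MiR-208b-3p was thus lower in both GAA samples also relative to this sum, most of which was miR-133a-3p and miR-133b-3p. The difference was -2.33 with miR-1a-3p alone as the denominator, and -2.99 with miR-486a-5p added to the sum. For each read of miR-499-5p, the same 4 arms had 1255 and 1595 reads without GAA, and 2284 and 1202 with it. The lowest and the highest of these values were both in GAA samples, so the groups overlapped.

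**Figure D5:**
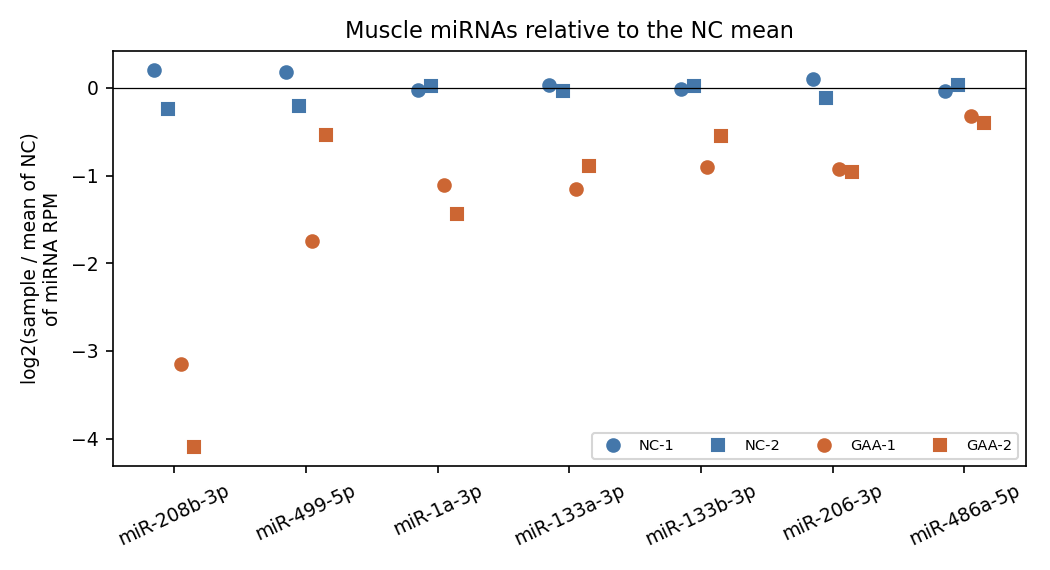
Log2 ratio of each sample to the mean of the NC samples, from miRNA RPM without a pseudocount, for miR-208b-3p, miR-499-5p and 5 muscle guide arms (NC in blue, GAA in orange, circles for number 1 and squares for number 2). Both GAA samples lie below both NC samples for every miRNA shown, against 13.5% of all 869 miRNAs, and those of miR-208b-3p lie lowest.

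Markers of other states were read in the same samples. The 4 markers of differentiated muscle, which are the 4 arms just summed, all had reads in every sample, with sums of 16217 to 16697 miRNA RPM in NC and 8015 to 9701 in GAA. All 5 markers of proliferating myoblasts (miR-221-3p, miR-222-3p, miR-17-5p, miR-20a-5p and miR-92a-3p) had reads in every sample, with sums of 4386 to 4571 in NC and 5401 to 6763 in GAA. Both GAA samples were above both NC samples in miRNA RPM for 3 of these 5, miR-221-3p, miR-222-3p and miR-92a-3p. The log2 fold change on this scale was 0.02 for miR-17-5p and -0.05 for miR-20a-5p. The median of the 5 was 0.39, against 0.08 over all miRNAs. In RPM both GAA samples were above both NC samples for 4 of the 5. There all 5 had a log2 fold change above 0, as did most miRNAs. Only 24.7% of all 869, and 10.0% of the 410 with a mean of at least 1 RPM, were below 0. The median of the 5 was 0.87, against 0.22 over all 869 and 0.49 over the 410. MiR-17-5p, at 0.49, and miR-20a-5p, at 0.42, did not stand above the median of the 410. The share of all miRNAs with both GAA samples above both NC samples was not counted on either scale. These counts therefore cannot show whether the markers differ from other miRNAs. The part of these markers in the difference of miR-208b-3p was not tested. In RNA from a whole culture, the level of a miRNA alone cannot tell fewer myotubes from less of that miRNA in each myotube. Relative to the 4 summed muscle arms of the same sample, miR-208b-3p differed by -2.71 (GAA minus NC, log2 scale). By staining for myosin heavy chain, the paper reports more positive myotubes with GAA than without it. Whether the number of myotubes differed between the sequenced samples was not tested.

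Of 7 miRNAs of blood cells or serum, 5 to 7 had reads in a sample, with sums of 25.7 to 45.4 miRNA RPM in NC and 31.9 to 38.0 in GAA, and miR-223-3p was at 0 in 3 of the 4 samples. Within that list, miR-451a and miR-144-3p, which are red blood cell miRNAs, had both GAA samples below both NC samples, with 10 and 4 reads of miR-451a in NC and 4 and 1 in GAA, and 25 and 9 reads of miR-144-3p in NC and 1 and 4 in GAA. MiR-144-5p, from the same hairpin as miR-144-3p, had 2 and 1 reads in both groups. MiR-142a-5p, a white blood cell miRNA, had both GAA samples above both NC samples, at 30.0 and 26.7 against 18.1 and 16.5 miRNA RPM. Over the list, both GAA samples were below both NC samples for 2 of 7 on either scale, against 5.52% of all 869 miRNAs in RPM and 13.5% in miRNA RPM. Both GAA samples were above both NC samples for 1 of 7 in miRNA RPM and 2 of 7 in RPM, where no share of all miRNAs was counted. Both endothelial markers had reads in every sample, at 25.2 to 36.9 in NC and 23.5 to 31.9 in GAA. MiR-122-5p, a liver miRNA, had 0 reads in both NC samples, 17 in GAA-1 and 2 in GAA-2. The part of these miRNAs was not tested either.

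The miRNAs whose levels followed the 2 arms most closely were found by Pearson's r of log2(miRNA RPM + 1) over the 4 samples, among 409 others with a mean of at least 1 RPM. For miR-208b-3p these were miR-335-3p (r = 0.998), miR-188-3p (r = 0.997) and miR-1a-3p (r = 0.993). MiR-335-3p stood at 27.8 and 24.2 miRNA RPM in the NC samples and at 9.89 and 8.42 in the GAA samples. MiR-188-3p moved less, from 28.4 and 27.6 in NC to 19.5 and 16.8 in GAA, and its log2 fold change in RPM was -0.14. For miR-499-5p they were miR-351-3p (r = 0.994), miR-24-3p (r = 0.985) and miR-34a-3p (r = 0.983), which, like miR-499-5p, were lowest in GAA-1. MiR-24-3p moved little, from 5216 and 5042 miRNA RPM in NC to 4534 and 4828 in GAA. MiR-351-3p had 10 to 14 reads in a sample and miR-34a-3p 3 to 8. A high r does not give the size of a change. With 4 samples that share their library depth across all miRNAs, these values of r are a description of likeness only.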

How the data were processed

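The authors trimmed and filtered the small RNA reads, mapped them to GRCm38, counted known miRNAs of miRBase with miRDeep2 and divided by the mappable reads of each sample. They deposited 1 file per sample, with each miRNA as log2(RPM + 1). A miRNA without a row was set to 0. Turned back into RPM, the values of a sample were multiples of 1 step, the RPM of 1 read, which gave the reads. Between 95.4% and 96.0% of the values came out whole within 0.05 reads, and each member arm did. MiRNA reads numbered 1653803 and 2065461 in NC and 3134241 and 2850828 in GAA. The limit that a count of 0 allows was set at 3 reads.

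Groups and numbers came from the sample titles, and no batch is given. The groups were compared in R 4.3.3 by limma 3.58.1 (lmFit, eBayes with a mean-variance trend, Benjamini-Hochberg adjustment) over all 869 miRNAs, without a filter and with a pseudocount of 1, once on RPM and once on miRNA RPM, so that a fold change is on the log2(value + 1) scale and understates the change of rare miRNAs. The thresholds are those of the authors, whose count model was not run. The fit was made on the log2 scale of the deposited values, and the recovered reads were given to limma-voom as an alternative. Ratios within samples were compared by exact permutation (scipy 1.17.1). Alternatives were a pseudocount of 0.1, a mean of at least 1 RPM, the replicate number as a block, limma-voom on the recovered reads, median-of-ratios scaling, a false discovery rate under 0.05 and each sample left out. For the ratio to the summed muscle arms, adding miR-486a-5p to the sum was a further alternative. Counting miRNAs of identical values once in the divisor, and miR-1a-3p alone as the denominator of a ratio, were added after seeing the data.

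The arms, lists and comparisons were chosen with earlier results of these data known. The miRNAs named are the 5 arms, the other arm of Mir208a, a list of muscle miRNAs with their opposite arms, miRNAs sharing bases 2 to 7 with an arm that had reads, the 3 miRNAs most alike to each of miR-208b-3p and miR-499-5p, and marker lists. Sequences came from RefSeq (GRCm38.p6), which had a mature sequence for 717 of the 869 names, and host introns from GENCODE M21.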

Additional observations from a re-analysis of the deposited data

How the results depend on the processing

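MiR-208b-3p kept a negative log2 fold change under every alternative run on both scales, and the call rather than the direction depended on the processing. In RPM, 0 miRNAs were called in the analysis as reported, with miR-208b-3p at a limma adjusted p of 0.205. With median-of-ratios scaling 1 was called, miR-208b-3p (-3.05, limma adjusted p = 0.00448). That scaling replaces the divisor, so its values were no longer per mappable read. Applied to miRNA RPM, it differed only in scale against the pseudocount (-3.35, limma adjusted p = 0.00513), so the 2 are not separate calls. Leaving out each sample called 0 miRNAs on both scales, with values of miR-208b-3p from -2.99 to -2.24 in RPM and from -3.67 to -2.92 in miRNA RPM. In miRNA RPM, 1 miRNA was called as reported, 0 with a pseudocount of 0.1 (miR-208b-3p at -3.57, limma adjusted p = 0.0695, the cause was not tested), 6 with a replicate block and 8 with limma-voom, and miR-208b-3p was among both the 6 and the 8. Also called with both the block and limma-voom were miR-1a-3p (-1.26 and -1.27), miR-133a-3p (-1.02 and -1.02) and miR-144-3p (-2.38 and -3.26). Over its alternatives the adjusted p of miR-208b-3p on this scale ran from 4.41e-15 to 0.334. The smallest values come from the replicate block and limma-voom, where limma found no variation of the spread between miRNAs and pooled it over all of them, with 869 and 1738 degrees of freedom. The replicate numbers are not stated to pair the samples, and deviations of samples with the same number from their group means had r = -0.15 over the 321 miRNAs that had 10 reads or more in each sample. The block left the call of miR-208b-3p and the lack of a call of miR-499-5p as they were. With each number once in each group, a block cannot change a difference between group means. The differences in the 2 within-sample ratios, -2.48 and -2.71, were thus unchanged by construction.

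MiR-499-5p was not called under any alternative run, with values from -0.89 to -0.11 in RPM and from -1.49 to -0.48 in miRNA RPM. The ratio of miR-208b-3p to miR-499-5p ranged from -3.56 to -1.40 and that to the summed muscle arms from -3.32 to -2.09. Counting miRNAs of identical values once changed no call. With 2 samples a group, no exact test could pass, and 8 to 23 reads per GAA sample limit the precision of both arms.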
